A study of Mus musculus with 2 samples.

Results

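The genes of Fc receptors, the proteins by which cells bind the constant part of antibodies, were examined in the white matter of CD47 knockout (CD47 KO) and wild-type (WT) mice. The 7 genes were taken by name from a list chosen with earlier results of these data known. They were the IgG receptors Fcgr1, Fcgr2b, Fcgr3 and Fcgr4, the signalling chain Fcer1g, the Fc receptor-like gene Fcrls and the neonatal Fc receptor Fcgrt. They had 12 probe sets, and were 7 of the 18193 genes that the array named. The CD47 KO pool held total RNA of Cd47-/- males, from their optic nerve and tract, labelled CD47 null, at 12 to 15 weeks; the WT pool came from wild-type males at 13 to 15 weeks. Each genotype had 1 array, so that no SD and no test could be had, and nothing in the values measures how mice of 1 genotype differ. The series description gives 4 CD47 KO and 5 WT animals per pool, whereas the labelling protocol gives 5 CD47 KO and 4 WT animals. The Cd47 gene was knocked out in the whole animal, not in 1 cell type. The strain of the WT mice was not given for this experiment in the sources used here.

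Fcγ receptors on microglia and macrophages bind IgG on opsonised particles and trigger their uptake. FcγRI, FcγRIII and FcγRIV, encoded by Fcgr1, Fcgr3 and Fcgr4, are activating receptors of the mouse; they signal through the common γ chain, the product of Fcer1g, whose tyrosine-based activation motif (ITAM) recruits the kinase SYK. FcγRIIB, encoded by Fcgr2b, carries an inhibitory motif (ITIM) that recruits the phosphatase SHIP1 and sets the threshold for the activating receptors. CD47 restrains phagocytes in a related way, by binding SIRPα, which also has ITIMs. Fcrls is a mouse gene known as a marker of microglia, and the neonatal receptor FcRn, encoded by Fcgrt, pairs with β2-microglobulin and recycles IgG and albumin in endothelium and macrophages.

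All values are MAS5 signal intensities on a linear scale. The floor, under which a signal was set to the floor before a ratio was taken, was the median intensity of both arrays, 106.2. All 7 genes had a probe set above it in both arrays, and a gene was represented by its brightest probe set. Of the 7 genes, 5 were over 2-fold higher in CD47 KO white matter (Fcrls, Fcer1g, Fcgr3, Fcgr2b and Fcgr1), 1 was higher by less (Fcgr4) and 1 was lower by less than 2-fold (Fcgrt). Among all 12481 measured genes 1.21% were over 2-fold higher and 0.817% over 2-fold lower, and 46.8% had a log2 ratio above 0. Since the members were chosen with earlier results known, this comparison is a description and not a test. The log2 ratio of CD47 KO to WT had a median of 1.28 among the 7 genes and of -0.02 among all measured genes. In bulk tissue, more cells that express a gene and more of its RNA in each cell cannot be told apart. Cd47 itself had lower signals in the CD47 KO array, between 34.3% and 39.5% of those in WT for the 3 probe sets that passed the floor on each array. The 6 measured genes listed for white matter (Mbp, Mobp, Mog, Mag, Cnp and Gfap) were far above the floor in both. Their log2 ratios lay between 0.10 and 0.15, except that of Gfap, which was 0.52.

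**Figure D1:**
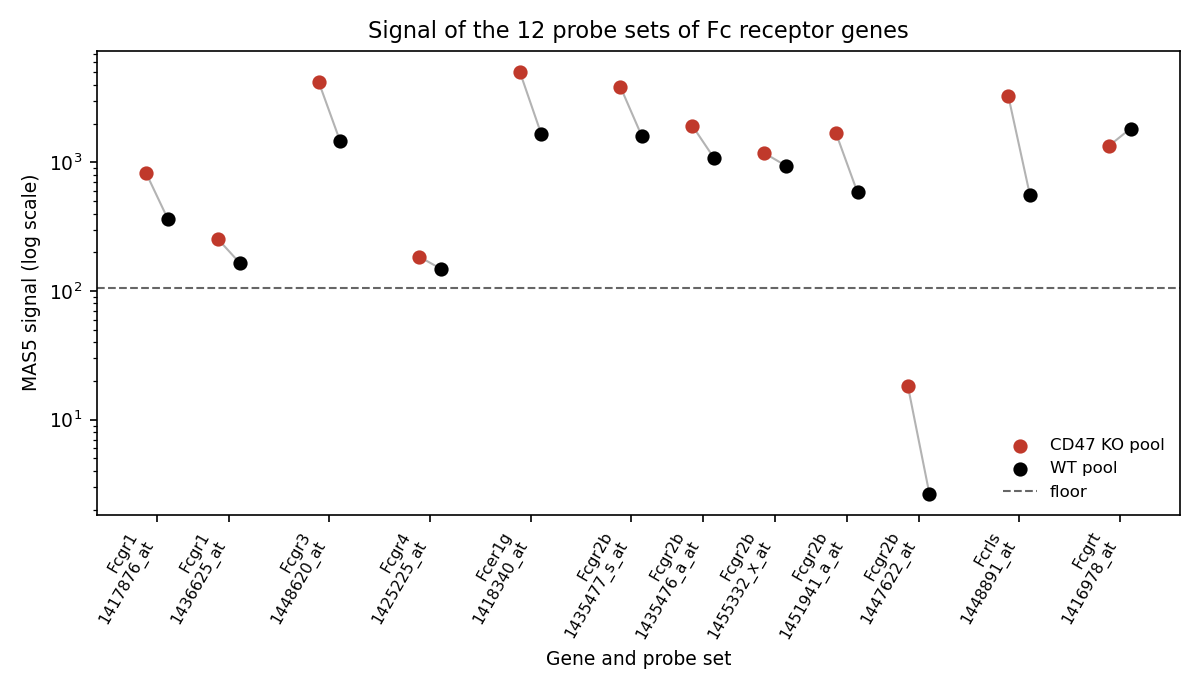
MAS5 signal (vertical, log scale) of each of the 12 probe sets of the Fc receptor genes (horizontal), with 1 point for the CD47 KO pool (red, left) and 1 for the WT pool (black, right), joined by a grey line; the dashed line is the floor at 106.2. All probe sets except that of Fcgrt have the higher signal in CD47 KO, and 1 probe set of Fcgr2b lies under the floor in both pools.

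The widest difference was that of Fcrls. Its probe set had a signal of 3255 in CD47 KO and 556 in WT, a 5.85-fold difference (log2 ratio 2.55). Only 6 of the 12481 measured genes had a higher log2 ratio. In this and the later rankings a gene with 1 array under the floor stood at its bound, so more genes may lie past a member. When measured genes were split into 4 equal groups by brightness, Fcrls was in a group of which 0.929% were over 2-fold higher, and there it held place 2 of 3120 by log2 ratio.

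Among the activating receptors, the IgG receptor gene Fcgr3 had a signal of 4221 in CD47 KO and 1454 in WT (2.90-fold, log2 ratio 1.54). The γ chain gene Fcer1g had 5050 in CD47 KO and 1647 in WT (3.07-fold, log2 ratio 1.62). The ratios of the receptor and of its chain thus lay 0.08 apart on the log2 scale. As the only repeat measurement, log2 ratios of different probe sets of 1 gene differed with an SD of 0.36 over 11670 pairs in 4744 genes, and 95% of these differences were under 0.75. Both genes were in the brightest of the 4 groups, where 0.961% of genes were over 2-fold higher, and 33 measured genes had a higher log2 ratio than Fcer1g.

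Fcgr1, which encodes the high-affinity IgG receptor, was measured by 2 probe sets. The brighter had 821 in CD47 KO and 364 in WT (2.26-fold, log2 ratio 1.17), and the dimmer 253 in CD47 KO and 166 in WT (1.53-fold, log2 ratio 0.61). Both had the higher signal in CD47 KO, and their log2 ratios lay on different sides of 2-fold; by their median, 0.89, Fcgr1 was not over 2-fold higher. Fcgr4 was dim, with 185 in CD47 KO and 149 in WT (1.24-fold, log2 ratio 0.31). Both signals were just above the floor, and 1474 measured genes had a higher ratio. When the floor was raised to the 60th percentile, Fcgr4 was under it in both arrays, so that a difference in this receptor could not be resolved at this signal.

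The inhibitory receptor gene Fcgr2b had 5 probe sets, of which 4 were above the floor on each array. The brightest, 1435477_s_at, had 3857 in CD47 KO and 1589 in WT (2.43-fold, log2 ratio 1.28). Probe set 1451941_a_at had 1687 in CD47 KO and 583 in WT (2.89-fold, log2 ratio 1.53). Probe set 1435476_a_at had 1928 in CD47 KO and 1085 in WT (1.78-fold, log2 ratio 0.83). In 1455332_x_at the signals were closest, 1182 in CD47 KO and 943 in WT (1.25-fold, log2 ratio 0.33). All 4 thus had the higher signal in CD47 KO, by amounts that spanned 1.21 on the log2 scale. The ending _s marks a probe set that can detect transcripts of more than 1 gene and _x one with probes that resemble other sequences; Fcgr2b and Fcgr3 are close relatives in their extracellular part, and a share of Fcgr3 RNA in the Fcgr2b signal was not tested. Without _s and _x probe sets the log2 ratio of Fcgr2b was 0.83, under 2-fold.

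The balance of activating over inhibitory receptor can be read as a difference of log2 ratios within the same arrays. By the brightest probe sets it was 0.26 for Fcgr3 minus Fcgr2b and 0.34 for Fcer1g minus Fcgr2b, each below the SD of 0.36 between probe sets of 1 gene. The value for Fcgr3 minus Fcgr2b ran between 0.01 and 1.21 when the other probe sets of Fcgr2b were used, and was 0.71 without _s and _x probe sets. For Fcer1g minus Fcgr2b it ran between 0.08 and 1.29, and was 0.79 without them. Some of these values passed the 0.75 that held 95% of pairs of probe sets of 1 gene, and others did not. The value thus depended on the probe set of Fcgr2b, and a shift of the balance was not resolved by these arrays. For Fcgr1 minus Fcgr2b the difference was -0.10, and for Fcrls minus Fcgr3 it was 1.01, past the 0.75 that held 95% of the pairs. That spread is between probe sets on the same arrays and does not measure how mice or hybridisations differ. The probe sets of Fcgr2b alone spanned 1.21, and whether Fcrls and Fcgr3 differ was not tested.

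Fcgrt was the exception among the 7 genes. Its only probe set had 1343 in CD47 KO and 1831 in WT, 1.36-fold lower in CD47 KO (log2 ratio -0.45). In size this is less than the 0.75 that held 95% of differences between probe sets of 1 gene. Whether Fcgrt differs between the genotypes was not tested. Of all measured genes 8.96% had a lower ratio, and of the genes in its own brightness group, the brightest, 3.27% did. The difference Fcgr3 minus Fcgrt was 1.98. The gene of its partner β2-microglobulin, B2m, had 23975 in CD47 KO and 17186 in WT by the brightest probe set (1.40-fold higher, log2 ratio 0.48), with 0.60 by the other. The albumin gene Alb was under the floor on each array.

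**Figure D2:**
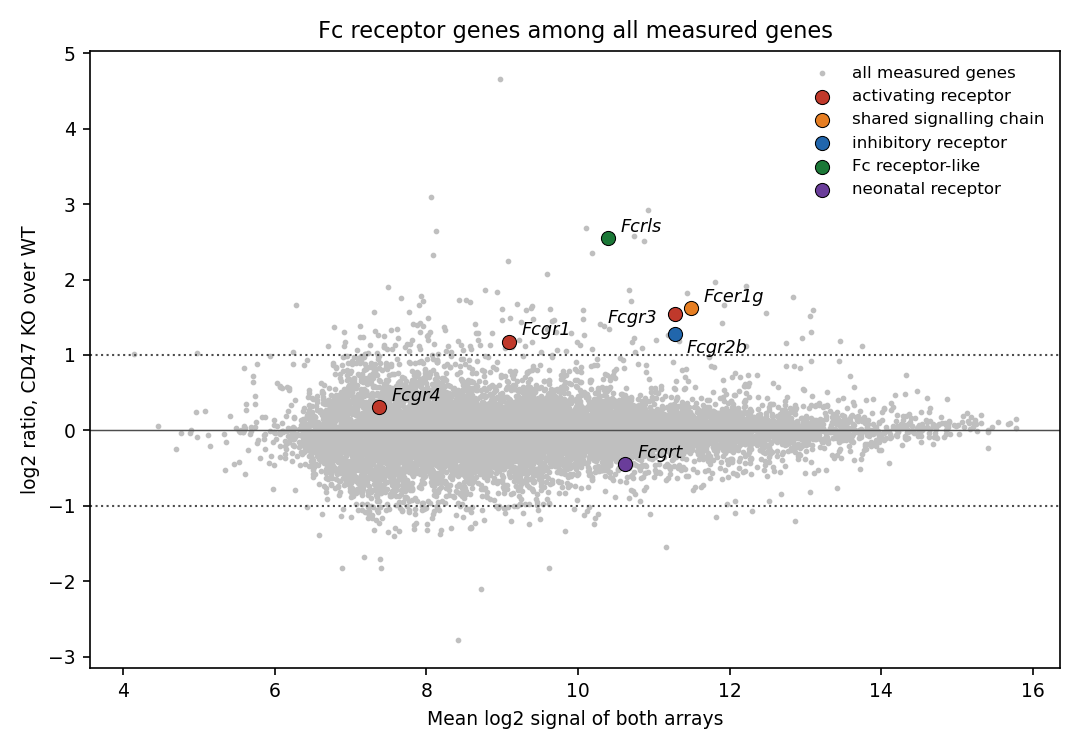
The log2 ratio of CD47 KO to WT (vertical) against the mean log2 signal of both arrays (horizontal) for the 12481 measured genes (grey) and the 7 Fc receptor genes (coloured by role); dotted lines mark 2-fold. Fcrls, Fcer1g, Fcgr3, Fcgr2b and Fcgr1 lie above the upper line, Fcgr4 within the lines among dim genes and Fcgrt below 0.

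The start regions of the members were read for short motifs of transcription factors known to drive genes of phagocytes. From RefSeq (GRCm38.p6), 250 bases before to 50 after each start site were searched on both strands for GAGGAAGT (PU.1), a pair of GAAA separated by 2 bases (IRF) and TTCNNNGAA (STAT). The 7 members all had a start region, and Fcgr3 had 2, whose start sites lie close together. GAGGAAGT was found in 1 of them, Fcgr4, and in 3.69% of the 27025 genes with a start region; the IRF motif was also found in Fcgr4 alone, against 3.99% of genes, and TTCNNNGAA in Fcgr1 alone, against 9.55%. The shorter PU.1 core GAGGAA, added after these were seen, was present in Fcrls, Fcgr3, Fcgr1 and Fcgr4 (4 of 7), against 31.2% of genes, and lies within GAGGAAGT where that occurs. A match describes the letters and not binding. The member with the widest difference (Fcrls), 2 activating receptors that were over 2-fold higher (Fcgr3, Fcgr1) and the one that was not (Fcgr4) are shown 5′ to 3′ on the gene's own strand, since these 4 held a match; capitals mark the matches, and TTCCTC and ACTTCCTC are GAGGAA and GAGGAAGT on the opposite strand. They are Fcrls at chr3:87263475-87263774 (minus strand), Fcgr3 at chr1:171059354-171059653 (minus), Fcgr1 at chr3:96293920-96294219 (minus) and Fcgr4 at chr1:171018676-171018975 (plus).
Fcrls: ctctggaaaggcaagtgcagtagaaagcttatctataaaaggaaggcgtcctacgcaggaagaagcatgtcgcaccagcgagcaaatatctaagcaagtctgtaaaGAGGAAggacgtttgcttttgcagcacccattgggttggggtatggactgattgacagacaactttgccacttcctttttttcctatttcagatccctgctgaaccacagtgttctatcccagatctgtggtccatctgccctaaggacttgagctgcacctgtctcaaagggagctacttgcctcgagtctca
Fcgr3: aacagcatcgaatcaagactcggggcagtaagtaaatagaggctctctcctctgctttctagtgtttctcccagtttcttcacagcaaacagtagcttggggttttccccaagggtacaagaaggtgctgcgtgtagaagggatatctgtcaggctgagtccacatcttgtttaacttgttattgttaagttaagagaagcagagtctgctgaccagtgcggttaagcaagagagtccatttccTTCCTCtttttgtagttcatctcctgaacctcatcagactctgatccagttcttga
Fcgr1: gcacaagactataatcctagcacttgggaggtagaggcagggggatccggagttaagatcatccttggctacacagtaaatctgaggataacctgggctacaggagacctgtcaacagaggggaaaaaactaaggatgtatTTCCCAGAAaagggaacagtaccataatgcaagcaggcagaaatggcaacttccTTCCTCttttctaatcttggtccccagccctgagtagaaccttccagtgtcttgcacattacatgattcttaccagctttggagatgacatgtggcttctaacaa
Fcgr4: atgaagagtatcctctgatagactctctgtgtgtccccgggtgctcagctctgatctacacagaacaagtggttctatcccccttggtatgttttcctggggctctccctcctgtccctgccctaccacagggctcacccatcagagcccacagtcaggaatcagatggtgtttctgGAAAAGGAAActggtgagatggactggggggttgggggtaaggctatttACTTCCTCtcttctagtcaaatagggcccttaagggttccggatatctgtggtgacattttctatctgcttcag
In Fcrls the core begins at position -144 from the start site, on the gene's strand. In Fcgr3 it begins at -6 from the start site of the region shown and at -15 from the other start site, and in Fcgr1 at -55, in each case on the opposite strand. The STAT match of Fcgr1, TTCCCAGAA, begins at -109. Fcgr4, the activating receptor nearest to the floor, held matches of PU.1 and IRF at -24 and -73. Fcer1g, Fcgr2b and Fcgrt held none of these motifs.

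Fcgr2b, Fcgr4, Fcgr3 and Fcer1g lie in this order on chromosome 1, with 7 other protein-coding genes between the first and the last. Of these 7 genes, 5 were measured, with log2 ratios between -0.55 for Pcp4l1 and 0.15 for Cfap126; Sdhc, a gene of the mitochondrial succinate dehydrogenase, had 1984 in CD47 KO and 2014 in WT. Over the 15 measured neighbours on chromosome 1, 5 to each side of each member, the log2 ratios ran from -0.55 to 0.75 with a median of 0.04, and 0 were over 2-fold higher or lower. The same held for the 20 neighbours of Fcrls and Fcgr1 on chromosome 3 (-0.42 to 0.54) and for the 10 of Fcgrt on chromosome 7 (-0.61 to 0.99). After the floor, 0 of the 45 measured neighbours were over 2-fold. Among all measured genes 1.21% were over 2-fold higher and 0.817% lower, so few or none of 45 would be at those shares. Values of genes that had 1 array under the floor, such as Prrg2 at 0.99, are bounds and can hide a wider difference. Prrg2 had 211 in CD47 KO and 93.9 in WT, and Ankrd34a had 53.6 in CD47 KO and 130 in WT.

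**Figure D3:**
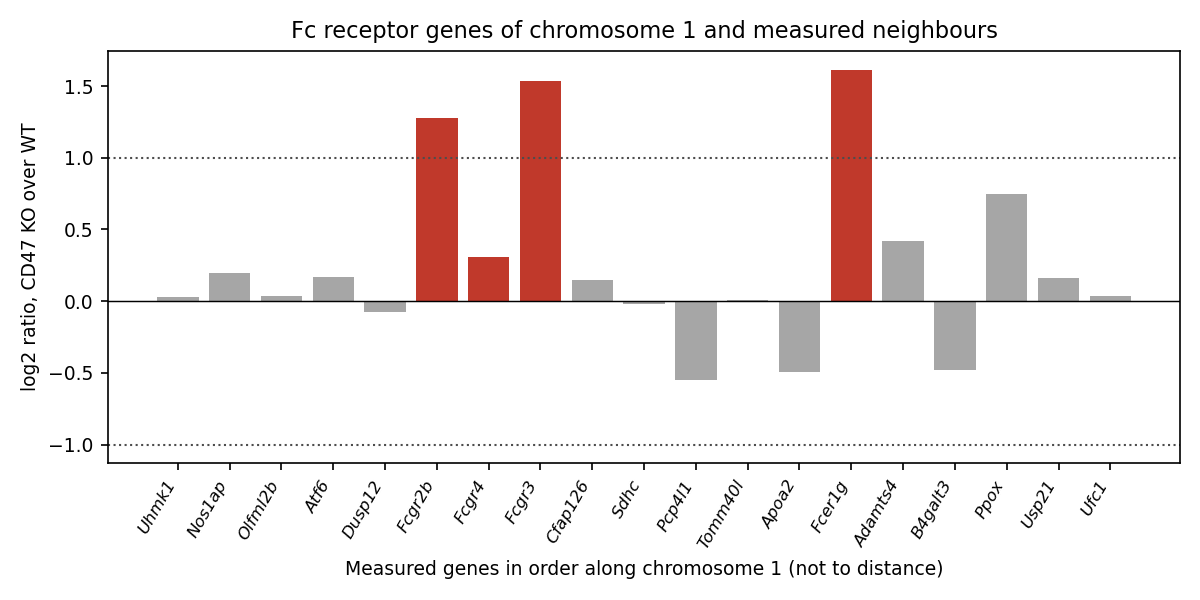
The log2 ratio of CD47 KO to WT (vertical) of the 4 Fc receptor genes of chromosome 1 (red) and their 15 measured neighbours (grey), in gene order and not to distance; dotted lines mark 2-fold. Fcgr2b, Fcgr3 and Fcer1g stand above the upper line between neighbours that stay within 2-fold; the value of Apoa2, under the floor in CD47 KO, is a bound.

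The genes that carry the signal of Fc receptors were read beside them. Of 22 measured kinases and adaptors of ITAM signalling, 4 were over 2-fold higher and 0 over 2-fold lower, 17 were above 0, against 46.8% of all measured genes, and the median log2 ratio was 0.28. The 4 were the adaptor genes Lat2, at least 2.96-fold higher (314 in CD47 KO and 80.2, under the floor, in WT), Blnk (1372 in CD47 KO and 496 in WT, 2.77-fold) and Lcp2 (405 in CD47 KO and 201 in WT, 2.02-fold), and the kinase gene Btk (371 in CD47 KO and 139 in WT, 2.66-fold). At a floor of the 60th percentile Lat2 was at least 1.69-fold and Btk at least 1.995-fold higher, under the threshold, and Lcp2 was 1.503-fold higher by the median over its probe sets. All 22 measured genes passed the floor in CD47 KO and 20 in WT. Those that passed in CD47 KO alone could only have a ratio above 0. Syk, the kinase that binds the phosphorylated ITAM, was under the floor in both arrays by all 4 of its probe sets, so that no ratio is given.

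On the inhibitory side, the 6 measured phosphatases and their adaptors had a median log2 ratio of 0.17 and 0 were over 2-fold. Inpp5d, which encodes SHIP1, the phosphatase of FcγRIIB, had 585 in CD47 KO and 440 in WT (log2 ratio 0.41), and -0.14 by its dimmer probe set. Ptpn6, which encodes the phosphatase SHP-1, had probe sets that disagreed: 1456694_x_at gave 516 in CD47 KO and 519 in WT (log2 ratio -0.01), and 1460188_at gave 728 in CD47 KO and 334 in WT (log2 ratio 1.13). Of 9 measured other ITIM receptors 9 were above 0, against 46.8% of all measured genes, with a median of 0.68, and 2 were over 2-fold higher: Cd72 (482 in CD47 KO and 187 in WT, 2.58-fold) and Cd300a (302 in CD47 KO and 129 in WT, 2.34-fold). All 9 passed the floor in CD47 KO and 6 in WT. A gene that passed in CD47 KO alone could only have a ratio above 0. At a floor of the 60th percentile Cd300a was at least 1.62-fold higher. Cd300lf, with 197 in CD47 KO and 60.4, under the floor, in WT, was at least 1.86-fold higher; with the floor at the 40th percentile it was at least 2.92-fold higher, past the threshold. Tyrobp, which encodes the ITAM adaptor DAP12 and is expressed in the same cells as Fcer1g, had 13486 in CD47 KO and 3950 in WT (3.41-fold, log2 ratio 1.77).

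**Figure D4:**
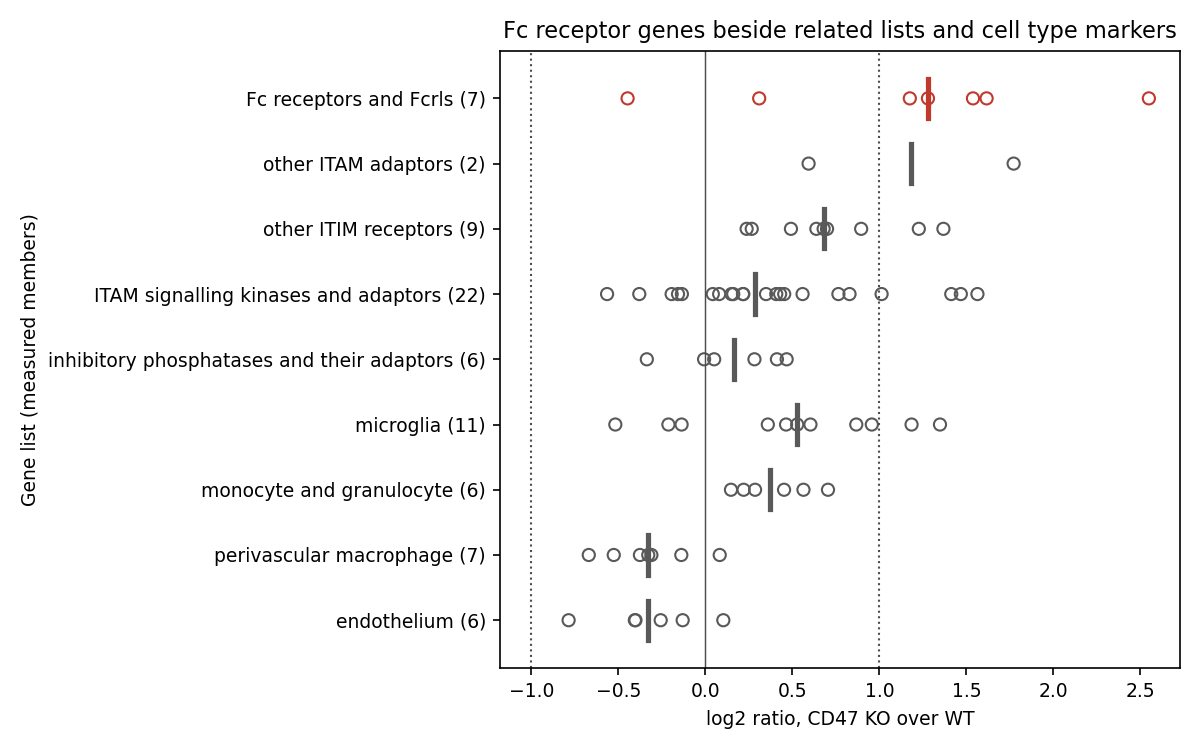
The log2 ratio of CD47 KO to WT (horizontal) of the measured members (circles, number in brackets) and the median (bar) of the Fc receptor genes (red) and of 8 lists of signalling genes and cell type markers (grey); dotted lines mark 2-fold, and a gene with 1 array under the floor is shown at its bound. The median of the Fc receptor genes is 1.28, and the medians of the lists run from 1.18 for the other ITAM adaptors to -0.33 for perivascular macrophages and endothelium.

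Markers of the cells that could carry Fc receptors were compared beside them, where again 46.8% of all measured genes were above 0. Of 11 measured microglial markers 8 were above 0 and 2 were over 2-fold higher, Cx3cr1 (log2 ratio 1.35) and C1qa (1.18). The 3 below 0 were Tmem119 (-0.52), Sall1 (-0.21) and P2ry12 (-0.14). The list median was 0.53 and its summed signal 50925 in CD47 KO and 32407 in WT. Most of that sum came from Csf1r (21741 in CD47 KO and 15765 in WT) and C1qa (16886 in CD47 KO and 7428 in WT). None of the 11 had a log2 ratio as high as Fcrls, Fcer1g or Fcgr3, 1 was above Fcgr2b, 2 were above Fcgr1, 8 above Fcgr4 and 10 above Fcgrt. Perivascular macrophage markers were below 0 for 6 of 7 measured members. The summed signal of the 8 with a probe set, also under the floor, was 3655 in CD47 KO and 4698 in WT. The brightest, Pf4, had 726 in CD47 KO and 1045 in WT. Monocyte and granulocyte markers were above 0 for 6 of 6, of which 5 passed the floor in WT. The sum over the 8 with a probe set, also under the floor, was 3882 in CD47 KO and 3150 in WT. The brightest, S100a8, had 1450 in CD47 KO and 1309 in WT, while Ccr2 was under the floor in both. Endothelial markers, beside Fcgrt, were below 0 for 5 of 6 measured members. The sum over the 7 with a probe set, also under the floor, was 15363 in CD47 KO and 18131 in WT. Most of that sum came from the brightest, Itm2a, with 12791 in CD47 KO and 15282 in WT (log2 ratio -0.26). The part of any of these cells in the differences of the Fc receptor genes was not tested.

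Lymphoid and mast cell markers were dim, and most were under the floor in both arrays. Of the 5 B and plasma cell markers with a probe set 2 were measured, Jchain (log2 ratio 0.25) and Mzb1 (-0.77). Over all 5, with those under the floor, the sum was 392.4 in CD47 KO and 468 in WT. Cd79a and Cd79b, which define B cells, were under the floor in both arrays. Of the 7 T and NK cell markers with a probe set 3 were measured, and the sum over all 7 was 521 in CD47 KO and 402 in WT. The brightest by mean log2 signal, Cd8a, had 96.5, under the floor, in CD47 KO and 147 in WT. The other measured ones were under the floor in WT: Nkg7 had 172 in CD47 KO and 79.1 in WT, at least 1.62-fold higher, and Cd3d had 119 in CD47 KO and 27.0 in WT, at least 1.13-fold higher. With the floor at the 40th percentile Nkg7 was 2.18-fold higher. Of the 6 mast cell markers only Cpa3 reached the floor, in WT, and their sum was 144 in CD47 KO and 259 in WT. Among 9 other immunoglobulin receptor genes with a probe set, 8 were under the floor in both arrays, Fcer1a, which encodes the IgE-binding chain, among them; the intracellular Fc receptor gene Trim21 had 573 in CD47 KO and 562 in WT (log2 ratio 0.03). Of the immunoglobulin genes 4 were measured and 0 were over 2-fold. Ighm had 376 in CD47 KO and 232 in WT by its brightest probe set (log2 ratio 0.70), but -0.51 and -0.25 by the other 2 above the floor.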

How the data were processed

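RNA pools of CD47 KO and WT white matter, 1 array each, were labelled by 3′ in vitro transcription and hybridised to Affymetrix arrays of the mouse genome. The authors used Command Console for the scan and Expression Console for the values; the submitters' processing notes name MAS5, with no version in the sources used here. Each deposited value is a MAS5 signal intensity on a linear scale, with a mean of 500.003 on each array after 2% was trimmed at each end, so that each array had been scaled to a common target.

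Of 45101 probe sets 64 controls were set aside. The 50th percentile of both arrays, 106.2, served as a floor; a gene was measured when above it in at least 1 array, and a ratio with 1 array under it is a bound, written as "at least". MAS5 ratios are noisy near background, which the floor limits. Of the probe sets 34945 had 1 gene symbol in the platform annotation, 932 several and 9160 none; 34741 were updated by gene identifier to RefSeq (GRCm38.p6). The brightest probe set stood for its gene. The 2-fold threshold is that of the study. No test was possible with 1 array per genotype, and precision is limited by the number of arrays. Steps were run in Python 3.11.15 with pandas and statsmodels and tested on simulated data.

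The members and the 15 gene lists were chosen with earlier results of these data known. Named were all members, the direct partners (Tyrobp, B2m, Syk, Inpp5d, Ptpn6), list genes over 2-fold where 5 or fewer, and the brightest marker of each other cell type; any other gene was picked with its values in view. Alternatives were other floors (40th and 60th percentile, or none), quantile normalisation, median centring, loess, the median over probe sets, leaving out _s and _x probe sets, and a 1.5-fold threshold. Protein motifs were planned and not analysed here.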

Additional observations from a re-analysis of the deposited data

How the results depend on the processing

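The directions of the 7 Fc receptor genes held under all alternatives in which they were measured (8 each, and 7 for Fcgr4, which had no value at a floor of the 60th percentile). The count over 2-fold higher was 5, and 4 by the median over probe sets (Fcgr1 at 0.89) and without _s and _x probe sets (Fcgr2b at 0.83), with 0 lower throughout. Log2 ratios ran between 2.55 and 2.59 for Fcrls, 1.60 and 1.65 for Fcer1g, 1.53 and 1.58 for Fcgr3, and -0.45 and -0.41 for Fcgrt. Each of these genes had 1 probe set, above every floor used. Only quantile normalisation, median centring and loess could therefore move their values, and these rescale the same arrays. Without _s and _x probe sets Fcgr3 minus Fcgr2b was 0.71 and Fcer1g minus Fcgr2b was 0.79. Other probe sets were chosen after the data were seen. For Fcgr2b, 1435476_a_at gave 0.83 with differences of 0.71 and 0.79, and 1455332_x_at gave 0.33 with differences of 1.21 and 1.29. In the other direction, 1451941_a_at gave 1.53 with differences of 0.01 and 0.08. The dimmer probe set of Fcgr1 gave 0.61. The causes were not tested. Counts over all genes moved with the floor: 102 genes were over 2-fold lower, against 173 with it at the 40th and 55 at the 60th percentile; without a floor 1287 were higher, against 151, and 1445 lower. At 1.5-fold 502 were higher and 585 lower, with the same count of 5 Fc receptor genes higher. Of values for other listed genes, 26 moved by more than the SD between probe sets. Of these genes 4, all under 2-fold, changed sign: Ptpn6, at -0.01, to between 0.01 and 1.13 under 5 alternatives, Ighm (0.70) to -0.25 and Trim21 (0.03) to -0.16 by the median over probe sets, and Gab2 (0.04) to -0.02. Ighm had -0.25 without _s and _x probe sets too. Signals near the floor, as for Fcgr4, limit what could be resolved. No paired analysis was possible because each genotype had 1 array.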

Other observations

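Of the listed genes 29 were under the floor in both arrays, of which 14 had the higher signal in CD47 KO and 15 in WT. The brightest 3 probe sets of Syk had 103, 97.5 and 53.2 in CD47 KO, against 31.0, 17.7 and 14.3 in WT, and the last 8.06 in CD47 KO and 8.32 in WT. Pirb, which encodes an inhibitory receptor of myeloid cells, had 103 in CD47 KO and 37.6 in WT. Lower in CD47 KO were Fcer2a, which encodes the low-affinity IgE receptor, with 10.8 in CD47 KO and 78.4 in WT, the mast cell protease gene Mcpt4 with 2.32 in CD47 KO and 26.2 in WT, and Cd79a with 3.94 in CD47 KO and 20.7 in WT. These signals lie in the range below the floor, where MAS5 ratios have little meaning, and no fold is given. The dimmest probe set of Fcgr2b, 1447622_at, had 18.4 in CD47 KO and 2.67 in WT and was under the floor in both.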
